A study of Homo sapiens with 12 samples.

Results

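SOX2 was knocked down in 2102Ep cells, a human embryonal carcinoma line called nullipotent because retinoic acid does not make it differentiate, and mature miRNAs were measured on TaqMan array cards. Each assay on a card is a PCR for 1 mature miRNA. The 3 siSOX2 samples received a Silencer Select siRNA against SOX2 and the 3 NC samples the Ambion Silencer Select Negative Control #1, each at 15 nM with Lipofectamine 2000 for 6 h, and RNA was extracted after 72 h more in growth medium. All samples came from this single line, were labelled as biological replicates, and were treated alike apart from the siRNA. The series held 12 samples in 4 groups of 3, the others being NC and siSOX2 samples of the embryonal carcinoma line NTera-2, which was transfected with other reagents (30 nM siRNA, Lipofectamine RNAiMAX). SOX2 mRNA and protein, the check of the knock-down itself, were not analysed here.

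The assays tested were chosen by measurement alone and not by change, whereas those named below were chosen in part by their change. Of 501 assays in the normalized table, those measured (raw Ct below 40) in at least 2 of 3 samples of both 2102Ep arms were tested, 264 on card A and 168 on card B. A further 67 had no measured value in any 2102Ep sample, and let-7f and miR-142-3p had too few. Measurement in all 6 samples was reached by 413 of them. In siSOX2 replicate 2, 254 card A assays were measured, against 264 to 266 in the others, while card B gave 167 in each sample. A Ct is the PCR cycle at which the signal of an assay becomes detectable, and it is higher where there is less RNA. The dCt is the Ct minus a constant of the sample and card. Log2 changes were taken as NC minus siSOX2 mean dCt and are positive for rises after knock-down.

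A miRNA pairs with its target mRNAs mainly through its seed, the bases next to its 5′ end, and miRNAs that share a seed are expected to share targets even when their genes lie on different chromosomes. Many miRNA genes are clustered and are cut from 1 long transcript, and each hairpin can give 2 mature strands, of which the minor one carries a star in the assay names. Pluripotent human cells express the miR-302 cluster (with miR-367) on chromosome 4, the miR-371 cluster (miR-371 to miR-373) on chromosome 19, and, just upstream of the latter, C19MC, a primate-specific imprinted cluster that is otherwise active mainly in placenta. SOX2 is a transcription factor that acts with OCT4 and NANOG to maintain the undifferentiated state.

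Of the mature sequences below, the first 11 share 1 seed but come from 3 clusters. The next 3 share a seed and come from 3 chromosomes, and results below turn on the seeds of both groups. The last 4 belong to miRNAs whose rises passed under every alternative run, leaving aside an unequal-variance test of each assay alone. All sequences are from RefSeq (GRCh38.p14), in which 330 of the tested assays were matched to a mature sequence. Each runs 5′ to 3′ with its seed, bases 2 to 8, in capitals.
miR-302a: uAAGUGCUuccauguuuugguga
miR-302b: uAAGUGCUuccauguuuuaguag
miR-302c: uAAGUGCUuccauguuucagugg
miR-302d: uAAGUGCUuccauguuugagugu
miR-372: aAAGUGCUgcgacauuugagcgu
miR-373: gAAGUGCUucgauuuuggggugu
miR-520a: aAAGUGCUucccuuuggacugu
miR-520b: aAAGUGCUuccuuuuagaggg
miR-520c-3p: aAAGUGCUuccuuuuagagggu
miR-520D-3P: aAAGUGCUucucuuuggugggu
miR-520e: aAAGUGCUuccuuuuugaggg
miR-148a: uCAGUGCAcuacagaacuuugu
miR-148b: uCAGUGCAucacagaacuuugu
miR-152: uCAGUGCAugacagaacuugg
miR-196b: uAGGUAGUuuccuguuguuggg
miR-375: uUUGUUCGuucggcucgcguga
miR-9*: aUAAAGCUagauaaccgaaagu
miR-27b: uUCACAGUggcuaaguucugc

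Markers of the labelled cell type were present. All 10 markers of embryonal carcinoma cells (miR-302a to miR-302d, miR-367, miR-371-3p, miR-372, miR-373, miR-517a and miR-519d) were measured in every 2102Ep sample, at raw Ct values of 16.1 to 24.99, where the median over the tested assays was 24.6. Of the blood and serum list, 4 assays were tested (miR-144*, miR-150, miR-223 and miR-486) and none passed limma, also without adjustment (0 at p of 0.05 or less). By raw Ct, miR-223 (22.8 to 23.4) and the muscle marker miR-206 (20.9 to 21.9) lay below that median in every 2102Ep sample. The muscle marker miR-133a (25.7 to 26.8) and miR-144*, miR-150 and miR-486 lay above it. MiR-122 of liver and miR-1 of muscle had no value. Replicates of 1 arm correlated at 0.980 to 0.989 across assays and samples of different arms at 0.972 to 0.977. The small nucleolar RNAs RNU44 and RNU48, which are control RNAs, had higher raw Ct values in siSOX2 than in NC samples on card B, at 17.7 ± 0.265 against 16.9 ± 0.0847 for RNU44 and 18.8 ± 0.231 against 18.1 ± 0.0642 for RNU48 (SD, n = 3), without overlap. On card A the arms overlapped for RNU44 (17.8 ± 0.174 against 17.3 ± 0.230), RNU48 (18.7 ± 0.306 against 18.5 ± 0.112) and U6 (14.9 ± 0.165 against 14.9 ± 0.0475).

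By limma over all tested assays, 61 (14.1%) passed an adjusted p of 0.05, of which 20 (4.63% of the assays) rose and 41 (9.49%) fell. Without adjustment 108 assays (25%) had a p of 0.05 or less. The falls were led by 1 genomic cluster: 22 of the 41 belonged to C19MC, whereas no C19MC miRNA rose. The 4 largest rises were those of miR-196b, miR-375, miR-30d and miR-9*. The median of all log2 changes was -0.0025, the median standard error 0.37 and the smallest change called 0.63. With 3 against 3 samples an exact permutation test of a single assay cannot reach a p below 0.1, so calls rest on the spread that limma pools across assays. When RNU44 and RNU48 served as the reference, the median of all assays moved to 0.43 and the calls became 34 higher and 13 lower. Leaving out NC replicate 1 gave 39 calls in place of 61, and leaving out NC replicate 3 gave 37.

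The largest rise was that of miR-196b, whose gene lies in the HOXA cluster at chr7:27169480-27169563 (GRCh38.p14, minus strand). Its dCt was 12.90, 12.86 and 12.34 in NC samples and 8.80, 8.24 and 8.61 in siSOX2 samples. The arms stood over 3 cycles apart. This was a log2 change of 4.15 ± 0.27 (standard error), or 17.7-fold (limma, adjusted p = 0.000671). The HOX list held 3 other tested assays, none of which passed: miR-10b had a log2 change of 1.48, miR-10a* of 0.32 and miR-10b* of -0.55.

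MiR-375, a miRNA of pancreatic islets and other endocrine cells, had dCt values of 7.44, 7.90 and 7.73 in NC samples and 4.02, 4.11 and 3.87 in siSOX2 samples. Both arms were tight and lay far from each other. The log2 change of 3.69 ± 0.22, or 12.9-fold, had the lowest adjusted p of the comparison (limma, adjusted p = 4.85e-06). The other 4 assays of the endoderm list gave no call: miR-192, miR-192*, miR-194 and miR-215 lay between -1.26 and 0.19.

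Of 13 tested miRNAs of the neural list, 2 rose and 2 fell (30.8% called, against 14.1% of all assays). MiR-9*, the minor strand of a hairpin encoded at 3 loci and used in neural differentiation, had dCt values of 0.51, 0.22 and -0.32 in NC samples and -2.18, -2.12 and -2.07 in siSOX2 samples. It rose by 2.26 ± 0.22 (limma, adjusted p = 0.000261). MiR-9 itself, the major strand, did not pass, with 1.18 ± 0.60 (adjusted p = 0.260). In NC replicate 1 its dCt of 0.04 stood apart from 2.55 and 2.62 in the other NC samples and lay below the siSOX2 range of 0.16 to 1.03. MiR-138, enriched in brain, went from 8.25, 7.87 and 8.12 to 6.92, 6.50 and 6.46, a log2 change of 1.45 ± 0.23 (limma, adjusted p = 0.00434). Its call was lost with unmeasured values set to Ct 40 (limma, adjusted p = 0.816), although it was measured in every 2102Ep sample. Both strands of miR-218, a miRNA of motor neurons, fell: miR-218 by 0.73 and miR-218-2* by 2.11 on the log2 scale (limma, adjusted p = 0.0115 and 0.0341). Without NC replicate 1, miR-218 no longer passed (adjusted p = 0.0540), and miR-218-2* passed only when siSOX2 replicate 2 was the sample left out (0.0862 to 0.102 otherwise).

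Several rises came from members of conserved families whose other members did not pass. In the miR-23, miR-27 and miR-24 clusters, miR-27b and miR-24 rose, which lie together at chr9:95085445-95086088, with a further copy of miR-24 on chromosome 19. The dCt of miR-27b was 7.74, 7.45 and 7.67 in NC samples and 6.16, 6.22 and 6.09 in siSOX2 samples, a log2 change of 1.46 ± 0.19 (limma, adjusted p = 0.00162). That of miR-24 was 3.48, 3.64 and 3.48 against 2.69, 2.76 and 2.26, a log2 change of 0.97 ± 0.21 (limma, adjusted p = 0.0115). MiR-27a, from the chromosome 19 copy, had 0.47 and did not pass. In the miR-15, miR-16 and miR-424 family, all 6 tested assays lay above 0, with a median of 0.38, and 1 was called. The 1 called was miR-424, a miRNA encoded on the X chromosome. Its dCt was 9.27, 8.995 and 9.13 in NC samples and 7.69, 7.82 and 7.32 in siSOX2 samples. The log2 change was 1.52 ± 0.25 (limma, adjusted p = 0.00434). MiR-16, with 0.03, was itself part of the card A constant.

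MiR-301b, of the miR-130 and miR-301 family, went from dCt values of 8.10, 8.23 and 8.39 to 7.26, 6.995 and 6.97, a log2 change of 1.17 ± 0.18 (limma, adjusted p = 0.00277). MiR-130b, whose hairpin is its neighbour on chromosome 22, had -0.14, and miR-301, its relative on chromosome 17, had 0.83 (adjusted p = 0.842 and 0.0819). Neighbouring genes with the same seed thus differed by over 1 unit in their log2 changes, though no test was made of that difference. In the miR-30 family 1 of 6 tested assays rose (16.7% called, near the 14.1% of all assays), miR-30d, with dCt values of 3.05, 3.58 and 4.65 in NC samples and 1.23, 1.57 and 1.48 in siSOX2 samples (2.33 ± 0.46, limma, adjusted p = 0.00810). The others ranged from -0.43 for miR-30b to 1.13 for miR-30a-3p. MiR-139-5p, a miRNA within the gene PDE2A on chromosome 11, rose by 1.88 ± 0.32 (limma, adjusted p = 0.00460), from 7.91, 8.62 and 9.17 to 6.30, 6.73 and 7.05.

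The minor strands miR-374a* and miR-545*, from neighbouring hairpins of the X chromosome, rose together, by 1.76 and 1.00 (limma, adjusted p = 0.0254 and 0.0185). MiR-374a* was not measured in siSOX2 replicate 3, and its log2 change turned to -3.46 (adjusted p = 0.607) when that value was set to Ct 40. Without NC replicate 1 or NC replicate 3 neither call was kept (adjusted p = 0.0852 and 0.0862 for miR-374a*, 0.0540 and 0.0721 for miR-545*), nor was that of miR-545* without siSOX2 replicate 1 (0.0711). The remaining rises were miR-26b* (below), miR-181a-2* with 1.68, miR-191* with 1.41, miR-603 with 1.36, miR-1269 with 1.31, miR-652 with 0.89, miR-28 with 0.78 and miR-149 with 0.63. Of these, miR-181a-2* and miR-1269 passed with each sample left out, whereas miR-191*, miR-603, miR-652, miR-28 and miR-149 each failed in at least 4 of the 6 cases (adjusted p of up to 0.152). MiR-143, a miRNA of smooth muscle and mesenchyme, had a log2 change of 3.48 without passing (standard error 0.94, adjusted p = 0.0819). Its NC samples ranged from 6.15 to 9.11 and it was not measured in siSOX2 replicate 2. None of the 8 tested miRNAs of the mesenchymal and muscle list passed limma (1 without adjustment).

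**Figure D1:**
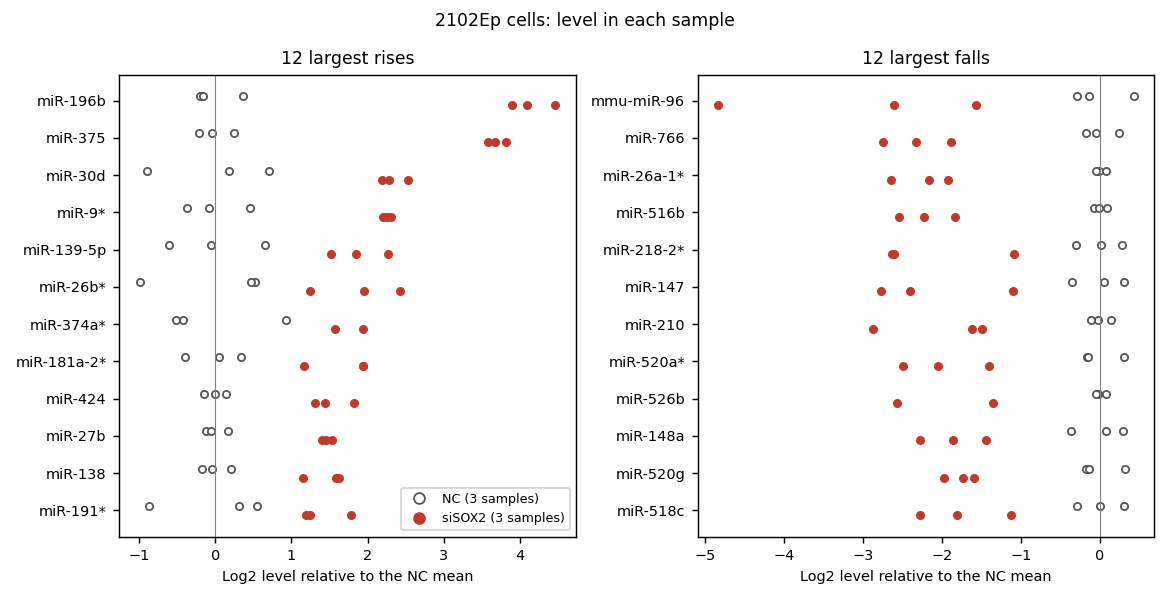
Log2 level of the 12 largest rises (left) and the 12 largest falls (right) past the adjusted threshold in each 2102Ep sample, relative to the mean of the NC samples. Open circles are NC and filled circles siSOX2 samples, 3 of each where measured. The siSOX2 samples of every miRNA shown lie on 1 side of its NC samples, with miR-196b and miR-375 the farthest to the right.

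C19MC gave most of the falls. All 38 of its assays in the table were tested, 22 fell (57.9%, against 9.49% of all assays) and 37 lay below 0. The median log2 change of the 38 was -1.22, or 2.32-fold lower, against -0.0025 over all assays. The fall was of like size in each siSOX2 sample: relative to the NC mean, the median over the cluster was -1.27, -1.07 and -1.38 in replicates 1 to 3, and between -0.05 and 0.05 in the NC samples. The arms did not overlap in 30 of 38 assays, against 31.9% of all assays. The 38 assays are not all distinct: miR-517a and miR-517b have the same mature sequence, and only miR-517a was called. MiR-525-3p and miR-526b were not measured in siSOX2 replicate 2. With unmeasured values set to Ct 40 their log2 changes became more negative (-7.22 and -6.21), yet neither call was kept. In bulk RNA, less of a miRNA per cell and fewer cells that carry it cannot be told apart.

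The C19MC calls ranged from 1.87-fold for miR-518f to 4.602-fold for miR-516b. MiR-516b had dCt values of 6.80, 6.75 and 6.64 in NC samples and 8.57, 8.96 and 9.27 in siSOX2 samples, a log2 change of -2.20 ± 0.25 (limma, adjusted p = 0.00434). MiR-512-3p, from the first hairpins of the cluster, had 0.72, 1.16 and 0.79 against 2.22, 2.36 and 2.53 (-1.48 ± 0.23, adjusted p = 0.00316). MiR-517c, towards its other end, went from 2.27, 2.45 and 2.19 to 3.63, 3.37 and 3.49 (-1.20 ± 0.17, adjusted p = 0.00234). Calls were thus found from end to end of the cluster, which its hairpins place at chr19:53666679-53762430 (GRCh38.p14). The median was -1.59 over 9 strands from the 5′ arm of their hairpin and -1.20 over 23 from the 3′ arm, of which 5 and 14 were called.

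Of the 16 C19MC assays that did not pass, 8 had arms that did not overlap. With the spread estimated from the 6 samples of 2102Ep alone, 27 of 38 were called, among them miR-512-5p, miR-518a-3p, miR-519c, miR-520c-3p and miR-525 in addition. The 1 assay above 0 was miR-518d with 0.12 ± 0.32 (dCt of 8.59, 8.44 and 8.02 in NC samples and 8.38, 7.96 and 8.35 in siSOX2 samples). The other strand of the same hairpin, miR-518d-5p on the same card, fell by 1.61 on the log2 scale, from 6.65, 6.62 and 6.53 to 8.18, 8.26 and 8.17 (limma, adjusted p = 0.00443). The 22 calls fell to 12 when NC replicate 3 was left out, to 13 when siSOX2 replicate 1 was, and to 7 when levels were taken relative to RNU44 and RNU48. On that reference the C19MC median was -0.84 where that of all assays was 0.43, and 36 of 38 assays lay below 0.

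**Figure D2:**
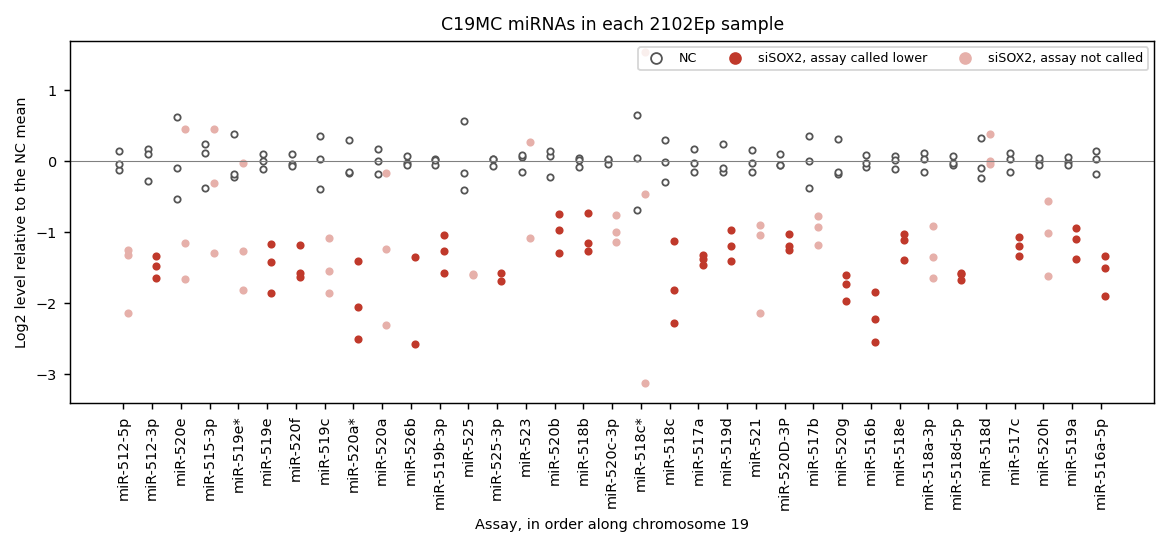
Log2 level of 35 C19MC assays in each 2102Ep sample relative to the mean of the NC samples, in the order of their hairpins along chromosome 19. Open circles are NC samples, dark filled circles siSOX2 samples of assays called lower and pale filled circles siSOX2 samples of the other assays. At most assays all siSOX2 samples lie below the NC mean, while at miR-515-3p, miR-518c*, miR-518d, miR-520e and miR-523 at least 1 lies above it.

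The miR-302 and miR-371 clusters, which share seeds with C19MC and mark the same undifferentiated state, gave no calls. None of the 9 tested strands of the miR-302 cluster passed limma (0 without adjustment), and their median was 0.0050. MiR-302b, with the lowest raw Ct of the marker list, had dCt values of -2.15, -1.81 and -2.03 in NC samples and -2.05, -1.78 and -2.05 in siSOX2 samples, a log2 change of -0.04 ± 0.18. All 3 assays of the miR-371 cluster lay below 0 (miR-371-3p -0.55, miR-372 -0.37, miR-373 -0.58) without passing (0 without adjustment), although the arms of miR-371-3p and miR-372 did not overlap. Their hairpins, at chr19:53787675-53788773, begin 3′ of C19MC on the same chromosome arm.

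Read by seed, the 11 miRNAs with the seed AAGUGCU printed above had different values in different clusters, a difference that was not tested. The 5 from C19MC (miR-520a, miR-520b, miR-520c-3p, miR-520D-3P and miR-520e) had a median of -0.9996 and ranged from -1.23 to -0.79. The 4 from the miR-302 cluster had a median of -0.06 and ranged from -0.17 to 0.45, and miR-372 and miR-373 lay between. Of the 11, miR-520b and miR-520D-3P were called (limma, adjusted p = 0.0492 and 0.0230), and neither call was stable: leaving out any 1 sample ended the call of miR-520b, and any but siSOX2 replicate 3 that of miR-520D-3P (adjusted p of up to 0.145 and 0.0740). MiR-519d, a C19MC member that shares the seed AAAGUGC with miR-17, miR-20a, miR-20b, miR-106a and miR-106b, fell by 1.18 (limma, adjusted p = 0.0185). Those 5 relatives lay between -0.26 and -0.11 and none passed. The call of miR-519d was lost without NC replicate 2, NC replicate 3 or siSOX2 replicate 1 (adjusted p = 0.0511 to 0.0711). The 23 assays of the cluster of miR-17 to miR-92a and its paralogs, growth-promoting miRNAs, had a median of -0.11, with none called and 4 passing without adjustment.

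The seed CAGUGCA was split within a family that lies on 3 chromosomes. MiR-148a on chromosome 7 fell by 1.86 ± 0.27 (limma, adjusted p = 0.00234), from dCt values of 1.77, 1.33 and 1.11 to 2.84, 3.27 and 3.68. MiR-148b on chromosome 12 had -0.17 ± 0.28 (adjusted p = 0.787). MiR-152 on chromosome 17 went from 8.41, 8.68 and 9.55 to 7.56, 8.02 and 7.18, which was 1.29 ± 0.42 without passing (adjusted p = 0.0728).

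**Figure D3:**
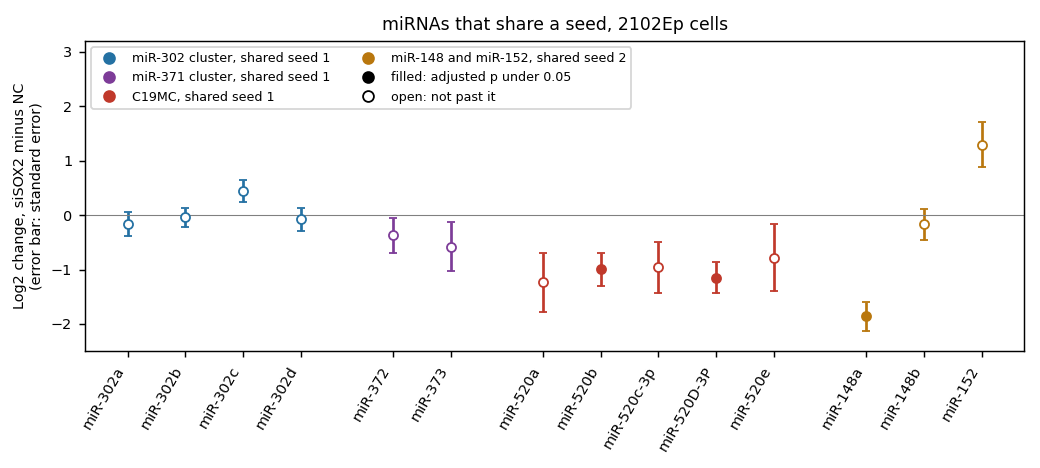
Log2 change, siSOX2 minus NC, with its standard error for 11 miRNAs that share the seed of the miR-302 and miR-520 miRNAs, coloured by cluster, and for miR-148a, miR-148b and miR-152, which share another. Filled points passed the adjusted threshold and open points did not. The C19MC members lie near -1 and the miR-302 members near 0.

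Outside C19MC, 19 assays fell. The cluster of miR-183, miR-182 and miR-96, miRNAs of sensory organs that share 1 transcript on chromosome 7, was below 0 in all 4 assays, with non-overlapping arms in each, and 3 fell. Among all assays 31.9% had non-overlapping arms and 9.49% fell. MiR-183 went from 6.58, 7.15 and 6.90 to 8.14, 7.93 and 9.17 (-1.54 ± 0.32, limma, adjusted p = 0.0108), and miR-182 from 5.07, 5.27 and 5.46 to 6.07, 6.31 and 6.59 (-1.06 ± 0.24, adjusted p = 0.0154). The miR-96 assay, which is named for mouse, had the largest fall of all, -2.999 ± 0.73 (adjusted p = 0.0218), at a mean raw Ct of 32.02 and with a siSOX2 spread of 13.87 to 17.13. MiR-183* had -1.14 (adjusted p = 0.112). The call of miR-182 was lost without NC replicate 1 or siSOX2 replicate 3 (adjusted p = 0.0629 and 0.0530), and that of miR-96 without NC replicate 1 or NC replicate 3 (0.0576 and 0.0838).

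The miR-26 family, whose hairpins lie in introns of the CTDSP genes, moved both ways. MiR-26a-1* had tight NC values of -0.93, -1.01 and -0.89 and siSOX2 values of 1.22, 0.98 and 1.7004, a log2 change of -2.24 ± 0.32 (limma, adjusted p = 0.00234). MiR-26a, the major strand, which has a further gene on chromosome 12, fell by 0.79 (limma, adjusted p = 0.0230). From miR-26b on chromosome 2, by contrast, the strand miR-26b* rose by 1.87 ± 0.43 (limma, adjusted p = 0.0165), from 2.83, 2.88 and 4.34 to 0.93, 1.404 and 2.10, and miR-26b had 0.55 without passing. Leaving out any sample but NC replicate 3 ended the call of miR-26a (adjusted p = 0.0503 to 0.0889), and leaving out siSOX2 replicate 1 or 2 that of miR-26b* (0.0660 and 0.0502).

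MiR-210, a miRNA induced in hypoxia, had dCt values of 3.05, 3.14 and 2.89 in NC samples and 4.65, 4.53 and 5.90 in siSOX2 samples, and fell by 1.998 ± 0.34 on the log2 scale (limma, adjusted p = 0.00434). MiR-766 had -3.13, -3.55 and -3.26 against -1.43, -0.57 and -0.99 (-2.32 ± 0.34, adjusted p = 0.00246). Both showed a gap of over 1 cycle between the arms. MiR-193a-3p fell by 1.43 (adjusted p = 0.0111) at a mean raw Ct of 30.2, and miR-135b*, a minor strand, by 1.53 (adjusted p = 0.00656), whereas miR-135b had 0.10 ± 0.19 with overlapping arms. The others were miR-147 (-2.09), miR-1180 (-1.36), miR-296 (-1.15), miR-31 (-0.95), miR-422a (-0.79), miR-184 (-0.74) and miR-221 (-0.67). MiR-147, miR-296, miR-422a and miR-221 failed in at least 4 of the 6 cases with 1 sample left out (adjusted p of up to 0.137), miR-31 without NC replicate 3 (0.0511) and miR-184 without NC replicate 3 or siSOX2 replicate 2 (0.0772 and 0.0549). The assays nearest to the threshold were miR-28, miR-149 and miR-520b inside it (adjusted p of 0.0462 to 0.0492) and miR-125b, miR-525 and miR-17* outside (0.0514 to 0.0721).

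The other clusters and families gave no calls. In the DLK1-DIO3 cluster on chromosome 14, an imprinted cluster like C19MC, none of 42 tested assays passed limma (4 without adjustment, where 25% of all assays did), with a median of 0.13. Its widest values were miR-432* with -2.49, in which NC samples ran from -2.99 to 2.72, and miR-431 with 2.13 (adjusted p = 0.0831). The 5 tested members of the miR-200 family, miRNAs of epithelial cells, lay between -0.61 and -0.08 (none called by limma, 0 without adjustment). Of the let-7 family, which accumulates with differentiation, 3 assays were tested and ranged from -1.01 to 0.83 (none called by limma, 0 without adjustment). The list of miRNA genes with SOX2 bound near their start in embryonic stem cells, compiled by the study from published binding data, held 55 tested assays. Of these, 3 rose (miR-9*, miR-181a-2* and miR-424) and 5 fell (miR-766, the miR-96 assay, miR-183, miR-135b* and miR-182). At 14.5% this share was close to the 14.1% of all assays, and the median was 0.12.

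**Figure D4:**
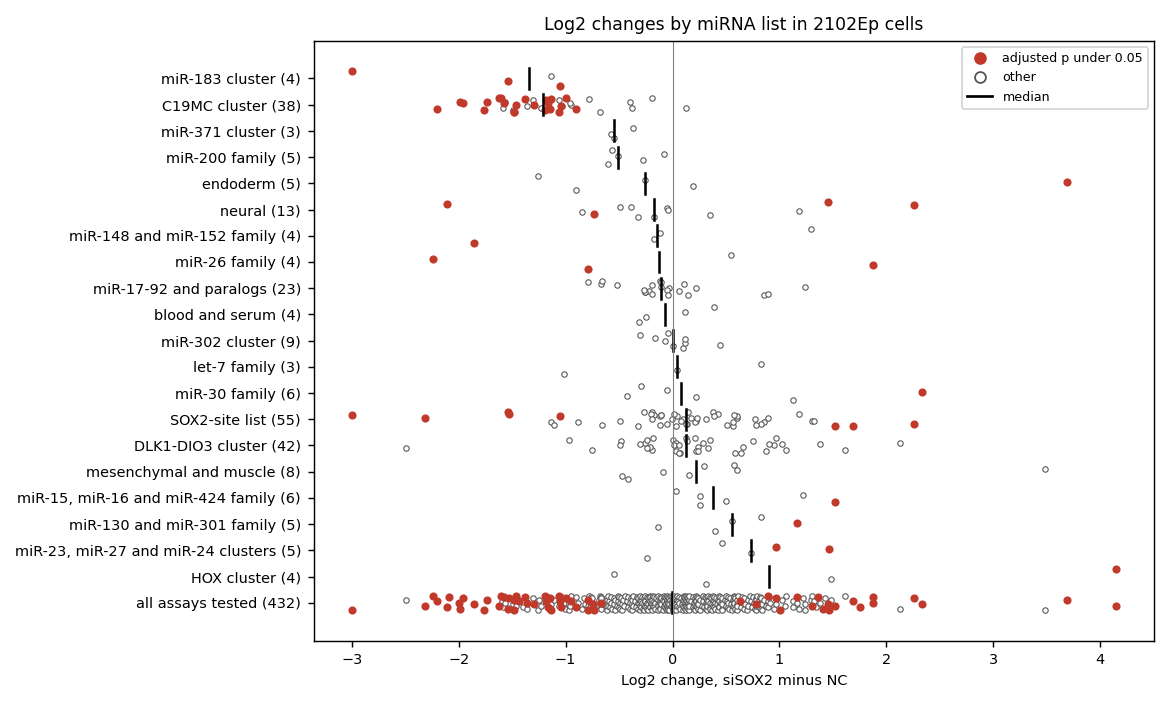
Log2 change, siSOX2 minus NC, of each tested assay by miRNA list, with the number tested in brackets and the median as a bar. Filled points passed the adjusted threshold. C19MC and the miR-183 cluster stand to the left of 0, while the miR-302 cluster, the DLK1-DIO3 cluster and all assays are centred near it.

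Both strands of a hairpin were tested in 77 cases, 56 of them with the strands on different cards. In 48 of the 77 pairs both log2 changes had the same sign. Among the 19 pairs with at least 1 strand called, 16 had the same sign, and both strands were called in miR-26a and miR-218, in each case lower. The exceptions were miR-135b, miR-191 and miR-518d. Card A held 45 of the calls among 264 assays (median -0.04) and card B 16 among 168 (median 0.04). C19MC lay mostly on card A, with 20 of 31 assays called there and 2 of 7 on card B (medians of -1.36 and -1.03). By mean raw Ct, 2 of 47 assays below 20 were called, 28 of 173 at 25 to 30 and 3 of 19 above 30.

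The same knock-down in NTera-2 cells called 25 assays by limma (5.54% of those tested there), and the difference in response could be tested in 385 assays, of which 17 (4.42%) passed. Of these, 13 were among the calls of 2102Ep cells. MiR-9* rose in 2102Ep cells and had 0.12 ± 0.22 in NTera-2 cells, a difference of 2.13 ± 0.31 (adjusted p = 0.00462). MiR-27b, miR-301b and miR-424 likewise had NTera-2 values between -0.24 and -0.03, with differences of 1.497, 1.403 and 1.74 (adjusted p = 0.0142, 0.0142 and 0.0283). On the falling side, miR-210 had 0.44 ± 0.34 in NTera-2 cells, a difference of -2.44 ± 0.48 (adjusted p = 0.0215), and miR-183, miR-182 and miR-148a differed by -2.02, -1.43 and -1.63 (adjusted p = 0.0382, 0.0405 and 0.0405). These 3 differences passed in 13, 9 and 11 of 18 alternatives (highest adjusted p 0.0986, 0.117 and 0.11), that of miR-424 in 15, that of miR-210 in 16 and those of miR-27b and miR-301b in 17. With a replicate block 4 assays passed in place of 17.

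C19MC could be compared in the 22 assays measured in both lines. Their median was -1.14 in 2102Ep cells, against -0.48 in NTera-2 cells. In 19 of 22 the 2102Ep value was the more negative, which was so in only a minority of all 385 assays tested in both lines. The median difference was -0.63, where that of all 385 assays was 0.27. None passed the test of the difference in limma (10 without adjustment, for which no share of all assays was counted). MiR-519e was nearest at -1.58 (limma, adjusted p = 0.0547). Leaving out 2102Ep NC replicate 2 or 3 gave 11 and 7 differences in place of 17. Because transfection reagent and siRNA concentration differed between the lines, they cannot be told apart from the line itself.

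**Figure D5:**
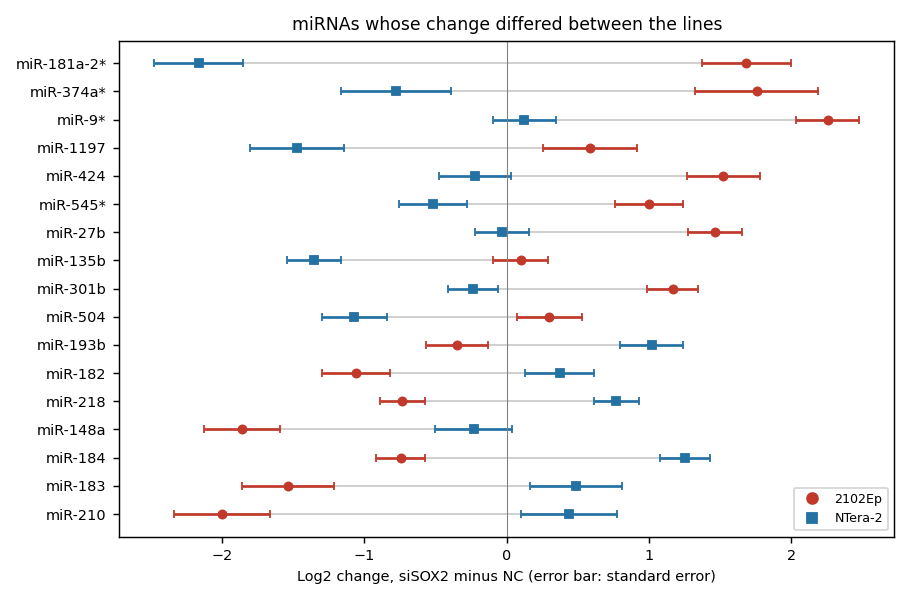
Log2 change, siSOX2 minus NC, with its standard error in 2102Ep (circles) and NTera-2 cells (squares) for the 17 miRNAs whose change differed between the lines at an adjusted p under 0.05. MiR-181a-2* lies at 1.68 and -2.16, the widest gap of the 17.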

How the data were processed

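MiRNAs were measured by PCR on TaqMan card A and card B in 6 samples of 2102Ep and 6 of NTera-2 cells. The authors exported raw Ct (log2 scale) with DataAssist 3.0 and deposited dCt (log2), after subtracting 1 constant for each card of a sample. In 2102Ep cells this equalled the mean of miR-16 and U6 on card A and was not traced on card B. From row 106 on, the deposited raw values of siSOX2 replicate 3 of 2102Ep cells were out of line by 1 place, and adding the constant back to dCt gave the raw Ct used. The authors' fold changes and p-values were not used. Minus dCt was fitted with limma 3.58.1 in R 4.3.3 (4 group means, 12 samples, eBayes, two-sided, Benjamini-Hochberg over the assays tested) and the fit was tested on simulated data. Passing without adjustment means a p of 0.05 or less. P-values measure the spread between 3 samples per group. PCR of pre-amplified cDNA gives no molecule counts, so the number of samples and weak assays limit the precision. The assays, the miRNA lists and the rule for named miRNAs (largest changes, list members called or at the ends of a list, miRNAs the study names, their other strands, neighbours of the threshold and differences between lines) were chosen with earlier results of these data known. Lists are described by counts and medians. Alternatives were other references, filters on Ct, other variance models, a replicate block, separate cards and each 2102Ep sample left out.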

Additional observations from a re-analysis of the deposited data

Results flagged for a closer look

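The response to SOX2 knock-down differed between 2102Ep and NTera-2 cells in 17 of 385 assays by the interaction term of limma, with an adjusted p under 0.05. Differences are the 2102Ep minus the NTera-2 log2 change. More positive in 2102Ep cells were miR-181a-2* (3.84), miR-374a* (2.53), miR-9* (2.13), miR-1197 (2.06), miR-424 (1.74), miR-545* (1.52), miR-27b (1.497), miR-135b (1.45), miR-301b (1.403) and miR-504 (1.37). More negative were miR-210 (-2.44), miR-183 (-2.02), miR-184 (-1.995), miR-148a (-1.63), miR-218 (-1.5025), miR-182 (-1.43) and miR-193b (-1.37). Adjusted p ranged from 0.00191 for miR-181a-2* and miR-184 to 0.0405. The differences of miR-1197, miR-135b, miR-504 and miR-193b came with no call in 2102Ep cells. Under the alternatives that could be run, miR-181a-2*, miR-9* and miR-184 passed in each (17, 17 and 18), whereas miR-374a* passed in 6 of 14, miR-1197 and miR-545* in 8 of 17, miR-182 in 9 of 18, and miR-148a, miR-504 and miR-193b in 11 of 18. Passing in 13 to 17 of 18 were miR-183 (13), miR-424 (15), miR-210 and miR-218 (16), and miR-27b, miR-135b and miR-301b (17). With 3 samples per group, outlying single samples were not tested. The part of transfection reagent, siRNA concentration, the reference behind the card constants and remaining SOX2 mRNA in these differences was not tested.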

How the results depend on the processing

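Of the 61 calls, 17 held under every alternative that could be run except the unequal-variance test of each assay alone. These 17 comprised 8 rises and 9 falls, 6 of them C19MC members. With samples left out in turn, 32 calls held in every case that could be run. Under all 3 other references over both cards (global mean, global median, RNU44 with RNU48) 32 calls held. One direction turned: miR-374a* had -3.46 with unmeasured values set to Ct 40.

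With RNU44 and RNU48 there were 34 higher and 13 lower calls, 27 list members, 7 C19MC members and 26 card A assays called, and 34 differences between lines. With U6 on card A, 11 were higher. The equal-variance model of each assay gave 39 calls (12 higher, 27 lower), 9 on card B and 28 differences between lines. The unequal-variance test gave 8 (5 higher, 3 lower; 8 list members, 3 C19MC, 7 on card A and 1 on card B). Separate cards gave 9 calls on card B and 28 differences. With each 2102Ep sample left out, calls ranged from 37 to 53 (14 to 23 higher, 23 to 31 lower), list members from 32 to 37, C19MC from 12 to 17, card A from 27 to 38, card B from 9 to 15 and differences between lines from 7 to 17.

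The replicate block gave 51 calls in place of 61 and 4 differences between lines in place of 17. The main fit did not take the replicate numbers as pairs. Residuals of same-numbered NC and siSOX2 samples correlated at 0.158, 0.169 and 0.0640 over 413 assays. These were all higher than those of different number, at -0.216 to 0.0364. Whether same-numbered samples shared a replicate effect was not tested. Weak assays limited precision, with a median standard error of 0.53 above a mean raw Ct of 30 and 0.32 below 20. For card B no U6 value could be used.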
